A study of Mus musculus with 4 samples.

Results

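The regions described here are the H3K27me3 peaks of control GL261 cells, a mouse glioblastoma line, that lay farther than 10 kb, edge to edge, from any H3K27me3 peak of irradiated GL261 cells. There were 4037 such far control peaks, 42.4% of the 9529 control peaks on chromosomes 1 to 19. The other 5492 control peaks lay within 10 kb of an irradiated peak. The series held 4 libraries: irradiated and control H3K27me3 chromatin immunoprecipitations, and an input of sonicated DNA for each condition, which was not analysed here by itself. The cells of both groups were fixed with 1% formaldehyde, their chromatin was sheared to between 300 and 500 bp, and DNA was sequenced in read pairs of 150 bp. IR in the labels was taken to mean irradiated, following the series title; neither the dose nor the harvest time is given.

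H3K27me3 is placed on histone H3 by EZH1 or EZH2 within Polycomb repressive complex 2 and is found on silenced genes. In mammalian cells the complex is recruited above all to unmethylated CpG islands, such as those at the promoters of developmental transcription factors, and it also leaves lower levels of the mark over wide intergenic and intragenic stretches. Narrow peaks therefore sample a mark that often forms broad domains.

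The far peaks were chosen by the absence of irradiated peaks, so their distances from that list and the share of peaks that are far are descriptions. With 1 library per condition, no difference could be set against replicate error, and no test between conditions was made. Shares have exact Clopper-Pearson 95% intervals and medians have order-statistic intervals. Neighbouring peaks are not independent, so these intervals cover counting error only. The irradiated list was the longer, with 15746 peaks on the same chromosomes, of which 8122 (51.6%) had no control peak within 10 kb. The total depth of the libraries is unknown. The fewest reads at the summit of a listed peak were 8 in the irradiated list and 7 in the control list.

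Promoters are shown first, because they are where Polycomb binding is best known. Of 31395 distinct RefSeq promoter windows on chromosomes 1 to 19 (build GRCm38.p6, 250 bases before to 50 after a start site), 33 overlapped a far control peak (0.105%). They belonged to 31 genes, and 15 of the windows were of protein-coding genes. Of the windows of protein-coding genes without a predicted name, 6 are printed. These were taken by q (the authors' p adjusted over the genome), then by p and then by fold enrichment. They are given 5′ to 3′ on the strand of the gene, with each CG dinucleotide in capitals. The sequences come from RefSeq, and CG reads the same on both strands.
Mucl2 (chr15:103899263-103899562, minus strand): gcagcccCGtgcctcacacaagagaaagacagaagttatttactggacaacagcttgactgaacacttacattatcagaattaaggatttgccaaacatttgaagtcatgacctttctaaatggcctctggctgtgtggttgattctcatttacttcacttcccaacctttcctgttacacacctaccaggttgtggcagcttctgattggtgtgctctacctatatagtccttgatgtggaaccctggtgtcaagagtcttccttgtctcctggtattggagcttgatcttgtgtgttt
Grxcr1 (chr5:68031585-68031884, plus strand): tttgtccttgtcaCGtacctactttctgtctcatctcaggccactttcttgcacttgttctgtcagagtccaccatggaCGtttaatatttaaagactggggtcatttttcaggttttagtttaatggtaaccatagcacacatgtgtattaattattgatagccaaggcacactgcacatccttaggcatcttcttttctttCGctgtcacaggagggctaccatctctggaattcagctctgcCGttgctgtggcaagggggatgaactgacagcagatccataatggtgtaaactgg
Olfr557 (chr7:102697966-102698265, plus strand): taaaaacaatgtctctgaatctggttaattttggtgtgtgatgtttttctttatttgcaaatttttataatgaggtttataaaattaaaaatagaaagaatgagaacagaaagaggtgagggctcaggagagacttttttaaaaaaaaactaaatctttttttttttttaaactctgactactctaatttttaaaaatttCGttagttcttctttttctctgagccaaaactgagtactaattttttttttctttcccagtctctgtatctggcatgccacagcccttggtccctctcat
H2-M10.6 (chr17:36811925-36812224, plus strand): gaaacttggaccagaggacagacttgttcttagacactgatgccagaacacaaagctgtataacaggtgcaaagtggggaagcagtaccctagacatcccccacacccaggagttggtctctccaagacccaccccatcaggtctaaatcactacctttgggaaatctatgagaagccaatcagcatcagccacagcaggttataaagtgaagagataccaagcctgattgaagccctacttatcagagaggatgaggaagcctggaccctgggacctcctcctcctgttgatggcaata
Ifna16 (chr4:88676807-88677106, minus strand): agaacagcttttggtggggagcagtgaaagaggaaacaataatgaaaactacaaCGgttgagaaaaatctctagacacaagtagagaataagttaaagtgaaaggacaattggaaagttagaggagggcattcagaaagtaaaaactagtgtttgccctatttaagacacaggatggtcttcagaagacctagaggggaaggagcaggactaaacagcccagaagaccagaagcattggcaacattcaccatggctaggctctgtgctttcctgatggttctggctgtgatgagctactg
Pik3c2g (chr6:139841195-139841494, plus strand): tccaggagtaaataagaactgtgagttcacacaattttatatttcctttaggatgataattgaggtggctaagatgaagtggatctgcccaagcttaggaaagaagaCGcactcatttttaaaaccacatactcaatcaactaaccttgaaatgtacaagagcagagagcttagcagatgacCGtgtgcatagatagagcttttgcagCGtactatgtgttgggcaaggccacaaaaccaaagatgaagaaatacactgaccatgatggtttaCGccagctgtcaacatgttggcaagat

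Mucl2 encodes a mucin-like protein, Grxcr1 a protein of the hair cells of the inner ear, and Olfr557 an odorant receptor. H2-M10.6 is a nonclassical major histocompatibility gene, Ifna16 encodes a type I interferon, and Pik3c2g encodes a class II phosphoinositide 3-kinase. Their windows held 1, 4, 1, 0, 1 and 4 CG in the order printed, against a median of 7 over all promoters. The peaks on them were weak. The authors' fold enrichment over background at the summit was 3.75 at Mucl2 and 3.43 at Grxcr1 and Olfr557, and the q was 0.385 at Mucl2. The other 3 peaks had a q of 1.

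None of the 33 promoters on a far control peak was rich in CpG, defined as an observed to expected ratio of at least 0.6 with a G+C content of at least 50%. The interval for that share reached 10.6%, whereas 34.1% of all promoters were CpG-rich. The median observed to expected ratio was 0.16 over the 33 windows and 0.39 over all windows. This was not particular to the far peaks: none of the 56 promoters on other control peaks and none of the 156 on irradiated peaks was CpG-rich. Within 1000 bp of a far peak, 1 of 95 promoters was CpG-rich (1.05%, interval 0.0266 to 5.73). No CpG-rich promoter window overlapped a peak of either list.

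**Figure D1:**
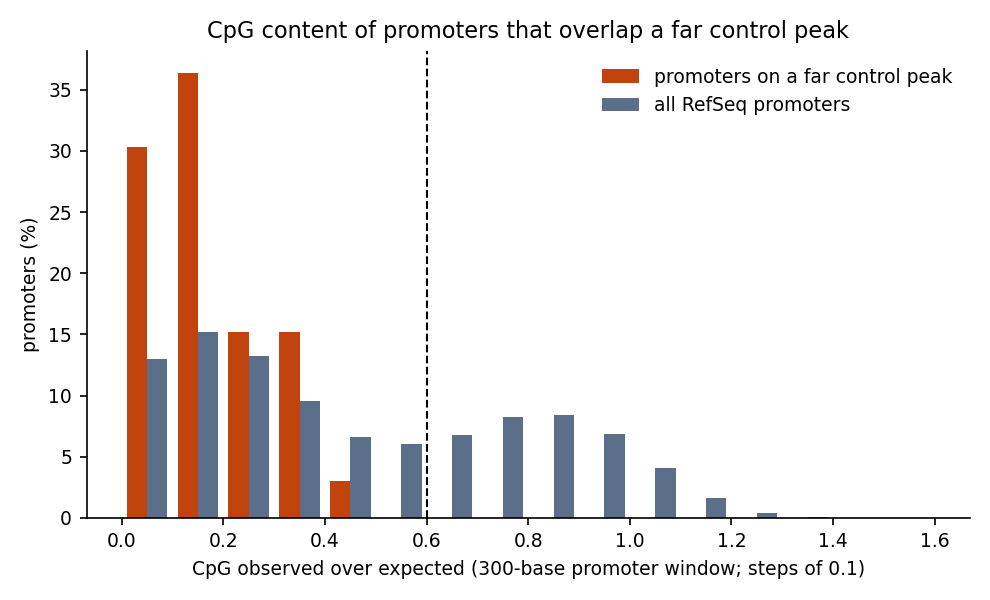
Distribution of the CpG observed to expected ratio in 300-base promoter windows, in steps of 0.1, for the 33 windows on a far control peak (left bar of each pair) and all 31395 RefSeq windows (right bar). The dashed line marks 0.6, and no window on a far control peak lies to its right.

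Of 122 developmental transcription factors on a list of classical Polycomb targets, 1 had a far control peak in or within 2000 bp of the gene (0.820%, interval 0.0208 to 4.48), against 4.01% of all protein-coding genes, a share inside the interval. Any irradiated peak marked 8 of the 122 genes and any control peak 4, against 8.63% and 6.33% of all protein-coding genes. The gene with a far control peak was Six2, which keeps kidney nephron progenitors undifferentiated, and its peaks did not lie on its promoter. The promoter of Six2 is printed for contrast, chosen after its values were seen, again with CG in capitals.
Six2 (chr17:85688205-85688504, minus strand): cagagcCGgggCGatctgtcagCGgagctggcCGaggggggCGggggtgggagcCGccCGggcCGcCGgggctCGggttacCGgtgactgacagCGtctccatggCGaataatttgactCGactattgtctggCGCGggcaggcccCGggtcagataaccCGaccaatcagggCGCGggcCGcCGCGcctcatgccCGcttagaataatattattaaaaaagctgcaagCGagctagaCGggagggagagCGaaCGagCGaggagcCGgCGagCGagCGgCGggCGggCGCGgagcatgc

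The Six2 window held 37 CG, with 67.3% G+C and an observed to expected ratio of 1.13. The far peaks of the gene, at chr17:85671465-85671801 (11 reads, fold 4.08, q 0.385) and chr17:85668797-85669080 (8 reads, fold 3.11, q 1), lay 16.5 and 19.2 kb from the start site. Both peaks lay inside the gene, and the promoter window overlapped neither.

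The far control peaks were narrow. Their median width was 329 bp (interval 325 to 334, quartiles 284 and 413), against 376 bp (371 to 380) for the other control peaks. The minimum width in the control list, 284 bp, was the width of 1242 far peaks (30.8%, interval 29.3 to 32.2) and of 998 other control peaks (18.2%, 17.2 to 19.2). At least 800 bp was reached by 29 far peaks (0.718%, 0.482 to 1.03) and by 265 other control peaks (4.83%, 4.27 to 5.43), against 3.09% of all control peaks. Irradiated peaks far from any control peak lay between these sets, with a median of 347 bp, but their list has a smaller minimum of 270 bp.

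The widest far peak spanned 1130 bp at chr6:140416473-140417602, between Capza3, which encodes an actin-capping subunit of sperm, and Plekha5. It had 13 reads over a raised background, with a fold of 3.02 (q 0.577). The next, of 1103 bp at chr4:57508293-57509395, lay within Pakap (fold 3.75, q 0.385). Peaks of 1035 and 1026 bp stood on chromosome 6, at chr6:50050703-50051737 between Npy, the neuropeptide Y gene, and Mpp6, and at chr6:50980154-50981179 between Npvf and Nfe2l3. The fifth, of 997 bp at chr12:111524152-111525148, lay between Tnfaip2 and Eif5, a translation initiation factor gene, 1175 kb from an irradiated peak. None of these 5 had a q of at most 0.05.

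Most far peaks were also weak. Their median was 9 reads at the summit, against 10 for other control peaks, and the median fold was 3.29 against 3.43. A q of at most 0.05 was reached by 83 far peaks (2.06%, interval 1.64 to 2.54) and 427 other control peaks (7.77%, 7.08 to 8.51), against 5.35% of all control peaks. A q of 1 was listed for 1708 far peaks (42.3%) and 1707 other control peaks (31.1%). The far share of the control peaks was 1708 of 3415 among peaks with a q of 1, 40.1% between that and 0.05, and 19.8% for q from 0.05 to 0.01. It was 12.9% below that and 7.35% (5 of 68) at a q of at most 1e-05. By width it was 55.4% at the minimum and 9.86% at 800 bp or more. The rule uses distance only, not q or width. These shares are descriptions, and nothing further is read from them.

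The local background moved with the same split. A background of at least 1.5 times the lowest was found at 276 far peaks (6.84%, interval 6.08 to 7.66) and 1049 other control peaks (19.1%, 18.1 to 20.2), against 13.9% of all control peaks. To set peaks of like strength side by side, peaks with 9 reads over the lowest background were compared, 586 far and 545 other. Their median widths were 319 bp (309 to 332) for far and 359 bp (348 to 376) for other control peaks. Far peaks were also the narrower at 8, 10, 11 and 12 reads, with medians of 320, 314.5, 328.5 and 316 bp against 350, 364.5, 380 and 398 bp. At 7 reads the medians were 366 and 370.5 bp, and at 13 reads 368 and 405 bp, both with overlapping intervals.

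**Figure D2:**
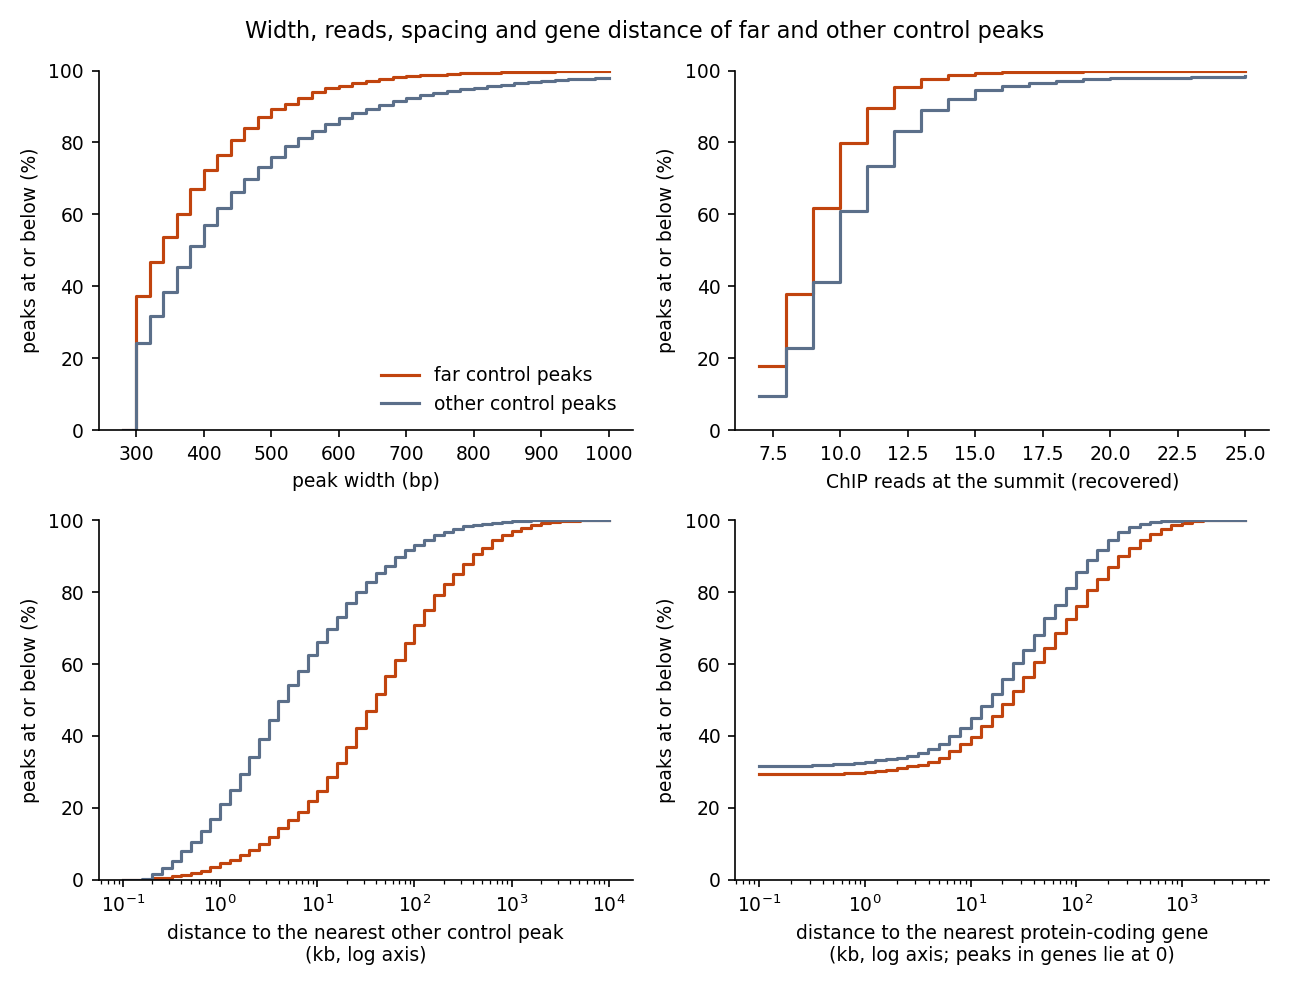
Cumulative share of far and other control peaks by width in bp, by recovered ChIP reads at the summit, by distance to the nearest other control peak and by distance to the nearest protein-coding gene (both in kb on log axes). The far curve lies above the other in the upper panels (329 against 376 bp; 9 against 10 reads at the median) and below it in the lower panels.

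The strongest far peaks stood on raised background. All 5 with a q of at most 1e-05 had a background of 2 to 13 scaled reads, against a lowest value of 0.918 in this list, where 1 read counts as 0.620 scaled reads. Other control peaks of that q mostly did too, with a raised background at 49 of 63 (77.8%), as did 50 of 98 irradiated peaks within 10 kb of a control peak. The lowest q, 3.87e-16, belonged to chr2:3050112-3050493, near the start of chromosome 2 and 63.7 kb before Fam171a1, with 67 reads and a fold of 6.07. A peak in Coro2a, which encodes an actin-binding coronin, had 71 reads at chr4:46582834-46583131, with a fold of 4.22 (q 1.05e-10). Then came chr3:8245819-8246458 (73 reads, fold 3.30, q 9.73e-08) and a pair near the start of chromosome 16, before Olfr161. The pair lay at chr16:3241174-3241814 (32 reads, q 8.82e-07) and chr16:3246376-3246810 (27 reads, q 4.01e-06). Over a background near the lowest, the strongest were chr15:8828136-8828557 (18 reads, fold 6.10, q 4.44e-05), in a stretch between Slc1a3 and Ranbp3l, and chr6:88455762-88456223 between Eefsec and Ruvbl1 (17 reads, fold 6.01, q 0.000204). The part of the background in these calls was not tested. Of the 83 far peaks with a q of at most 0.05, 10 had a raised background, against 115 of 427 among other control peaks.

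A larger share of far control peaks than of other control peaks lay in gene-poor sequence. Outside any annotated gene lay 2376 of them (58.9%, interval 57.3 to 60.4) and 2996 other control peaks (54.6%, 53.2 to 55.9), against 56.4% of all control peaks. More than 100 kb from a protein-coding gene lay 964 far peaks (23.9%, 22.6 to 25.2) and 796 others (14.5%, 13.6 to 15.5). Beyond 500 kb the counts were 156 (3.86%) and 35 (0.637%). Within 500 kb on either side, the median number of protein-coding genes was 6 around far peaks and 9 around other control peaks. It was 10 around all irradiated peaks and 8 around all control peaks. Gene context is therefore not independent of a rule based on distance from irradiated peaks, at equal reads or otherwise. The median distance to a start site was 46.1 kb for far peaks (43.3 to 49.6) and 31.4 kb for others (30.0 to 33.2), and 81 far peaks (2.01%) lay within 1000 bp of one, against 164 others (2.99%).

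At 9 reads over the lowest background, 25.6% of far peaks (22.1 to 29.3) and 16.5% of other control peaks (13.5 to 19.9) lay more than 100 kb from a protein-coding gene. At 7 and 8 reads the shares were 30.0% and 27.5% of far peaks, against 13.6% and 15.0% of others. At 10 reads they were 21.5% of far peaks (17.6 to 25.9) and 17.4% of others (14.1 to 21.1), and the intervals also overlapped at 11, 12 and 13 reads. The share outside annotated genes did not separate in the same way, at 58.0% of far peaks (53.9 to 62.1) and 56.3% of others (52.0 to 60.5), with overlapping intervals. Long noncoding RNA genes held 463 far peaks (11.5%) and 803 others (14.6%), and pseudogenes 69 (1.71%) and 65 (1.18%). No peak of either set lay in an annotated miRNA gene, and Mir3471-1 was the only miRNA gene within 2000 bp of a far peak.

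Distance from the irradiated list was ordered with gene density. In steps of 10 to 20, 20 to 50, 50 to 100, 100 to 1000 and over 1000 kb from the nearest irradiated peak there were 886, 990, 618, 1305 and 238 far peaks. The median number of protein-coding genes within 500 kb on either side was 8, 7, 6, 6 and 2 over these steps. The share outside annotated genes was 58.4%, 55.3%, 56.5%, 61.7% and 66.4%, and the share at the minimum width was 27.1%, 29.7%, 28.8%, 33.1% and 41.2%. The share with a q of at most 0.05 stayed between 1.62% and 2.59%. At the edge of the rule, 235 control peaks 10 to 12 kb from an irradiated peak had a median width of 344 bp and a median fold of 3.37. The 275 control peaks at 8 to 10 kb, just excluded, had 349 bp and 3.40.

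Far control peaks were also more scattered. Another control peak of either kind lay within 10 kb of 996 far peaks (24.7%, interval 23.3 to 26.0) and of 3638 other control peaks (66.2%, 65.0 to 67.5). The median distance to the next control peak was 35.6 kb for far peaks (33.6 to 39.3) and 4.00 kb for others (3.82 to 4.26). The difference was also present at equal strength: at 9 reads over the lowest background the shares were 27.3% (23.7 to 31.1) and 63.5% (59.3 to 67.5). Spacing is not independent of the rule, which takes far peaks only where no irradiated peak is near, and comparing at equal reads does not change that. For the runs that follow, the other control peaks were also left out. Joining far peaks at most 50 kb apart gave 2863 runs, of which 2158 were single peaks. These singles made up 53.5% of far peaks, against 17.7% among other control peaks and 25.6% among far irradiated peaks.

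Runs of 5 or more far peaks numbered 49 and held 312 peaks, and 29 of the 49 were on chromosome 15. The longest had 12 peaks over 177 kb at chr15:55712577-55889628 inside Sntb1, which encodes a syntrophin of the dystrophin complex, with no irradiated peak inside the run. A run of 10 at chr15:66318184-66440402 reached into Lrrc6, a gene for the assembly of ciliary dynein, and contained 1 irradiated peak. Another run of 10 lay at chr15:67285949-67396143, with 1 peak outside annotated genes, between the protein-coding genes St3gal1, a sialyltransferase gene, and Zfat. The run of 9 at chr15:3835205-3951234 was intergenic, between Ghr, the growth hormone receptor gene, and Fbxo4, and contained 1 irradiated peak. Of the runs of 8, the first on chromosome 15, at chr15:7587229-7672067, was intergenic between Egflam and Gdnf, which encodes a neurotrophic factor. Runs of 8 off chromosome 15 lay at chr16:79995073-80129580 between Tmprss15, the enterokinase gene, and Ncam2, a neural adhesion gene. Another was at chr5:26057811-26221820 between Speer4a and Dpp6, with all of its peaks in annotated genes. A further run lay at chr8:92599484-92714671, between Irx5 and Mmp2, with 1 irradiated peak inside. Its span crossed Irx6, but all 8 of its far peaks lay outside annotated genes.

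The far peaks were less concentrated on chromosomes 15, 6 and 11 than the other control peaks. Chromosome 15, 4.26% of the span of the 19 chromosomes, held 732 far peaks (18.1%, interval 17.0 to 19.4) and 1570 others (28.6%, 27.4 to 29.8). Chromosome 6 held 410 (10.2%) and 841 (15.3%), and chromosome 11 held 276 (6.84%) and 649 (11.8%). Chromosome 16 went the other way, with 210 far peaks (5.20%, 4.54 to 5.93) and 142 others (2.59%, 2.18 to 3.04). The far share of the control peaks was highest on chromosomes with few irradiated peaks per Mb, at 73.6% on chromosome 13, 70.5% on 14, 68.6% on 3 and 68.2% on 12. It was 29.8% on chromosome 11, 31.8% on 15 and 32.8% on 6, and also 32.8% on the short chromosome 19, where the irradiated list had 268 peaks. Over the 19 chromosomes this share had a Spearman correlation of -0.92 with the density of irradiated peaks, which the rule builds in. Even so chromosome 15 had the highest density, 7.05 far peaks per Mb, against 0.669 on chromosome 3. All control peaks were also densest there, at 22.2 per Mb against 0.975 on chromosome 3. The density of far peaks had a Spearman correlation of 0.80 with that of irradiated peaks.

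**Figure D3:**
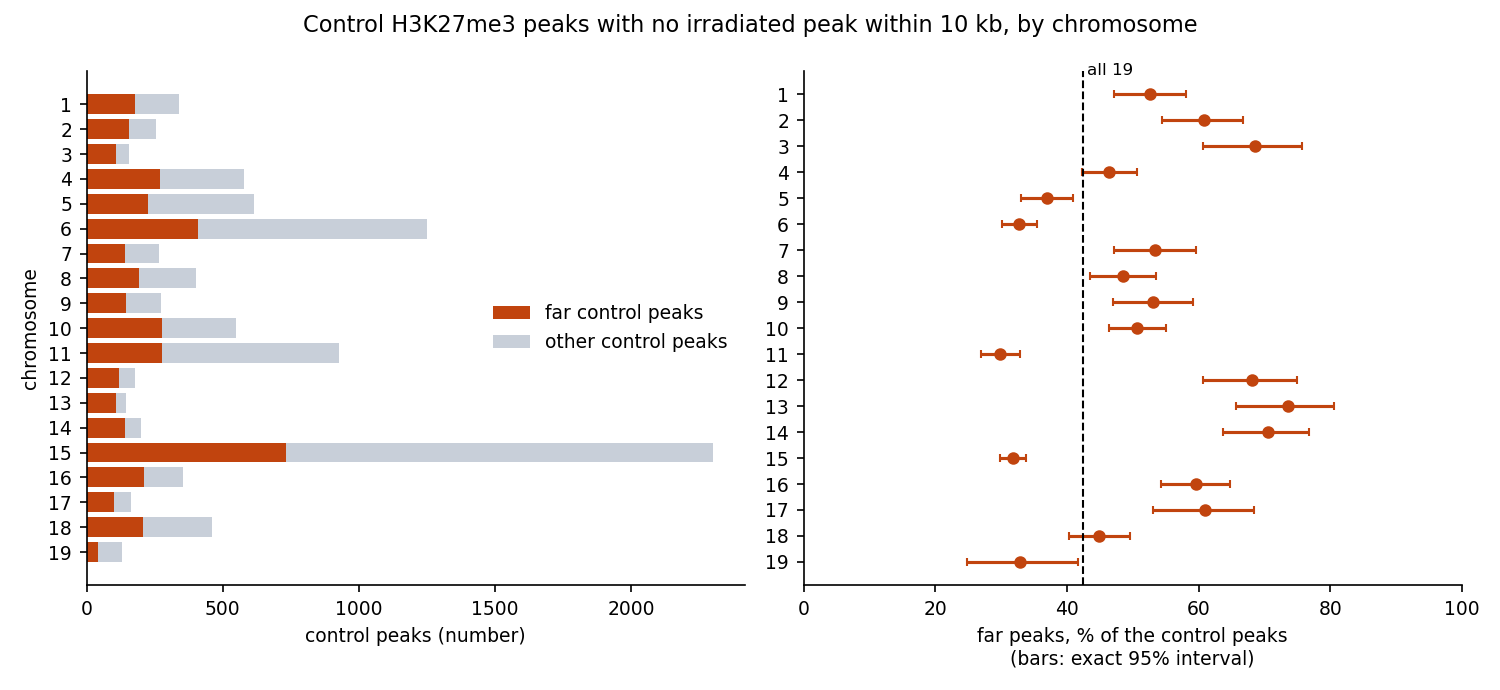
Left, the number of control peaks on each chromosome, divided into far control peaks and other control peaks. Right, the far share in percent with its exact 95% interval, the dashed line marking 42.4% over all 19 chromosomes; chromosomes 13 and 14 are above 70% and chromosome 11 is below 30%.

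On chromosome 16, almost all control peaks were far in a stretch with almost no irradiated peaks, which the rule builds in. Between 45 and 90 Mb, 89 of 92 control peaks were far, and the irradiated list had 8 peaks, 5 of them beyond 89 Mb. Between 0 and 45 Mb of the same chromosome, 116 of 243 control peaks were far and the irradiated list had 289 peaks. The 89 far peaks had a median width of 302 bp and a median fold of 3.43, and 77.5% lay outside annotated genes, against 53.4% of the 116. Their median of 9 reads equalled that of the 116, and 4 had a q of at most 0.05. Of the irradiated peaks in the stretch, the lowest q was 0.00171.

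The gap between irradiated peaks from chr16:44067911 to chr16:79643709 spanned 35.6 Mb and held 42 control peaks, all far by the rule. The next gap, of 5.12 Mb, held 28 far peaks, all outside annotated genes, with the peak at chr16:79792528-79792864 (17 reads over a background of 1, fold 5.77, q 0.000454) among them. The protein-coding genes with far peaks in the 45 Mb stretch were 8, and 7 of them had no irradiated peak. Robo1, an axon guidance receptor gene, had 2 far peaks. Epha6, an ephrin receptor gene, Cadm2, a synaptic adhesion gene, and Arl13b, which encodes a GTPase of cilia, had 1 each. Adgrg7, an adhesion receptor gene, Htr1f, a serotonin receptor gene, and Myh15, a myosin gene, also had 1 each. Grik1, a kainate receptor gene, had 1 far and 1 irradiated peak. None of these peaks had a q under 0.385.

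**Figure D4:**
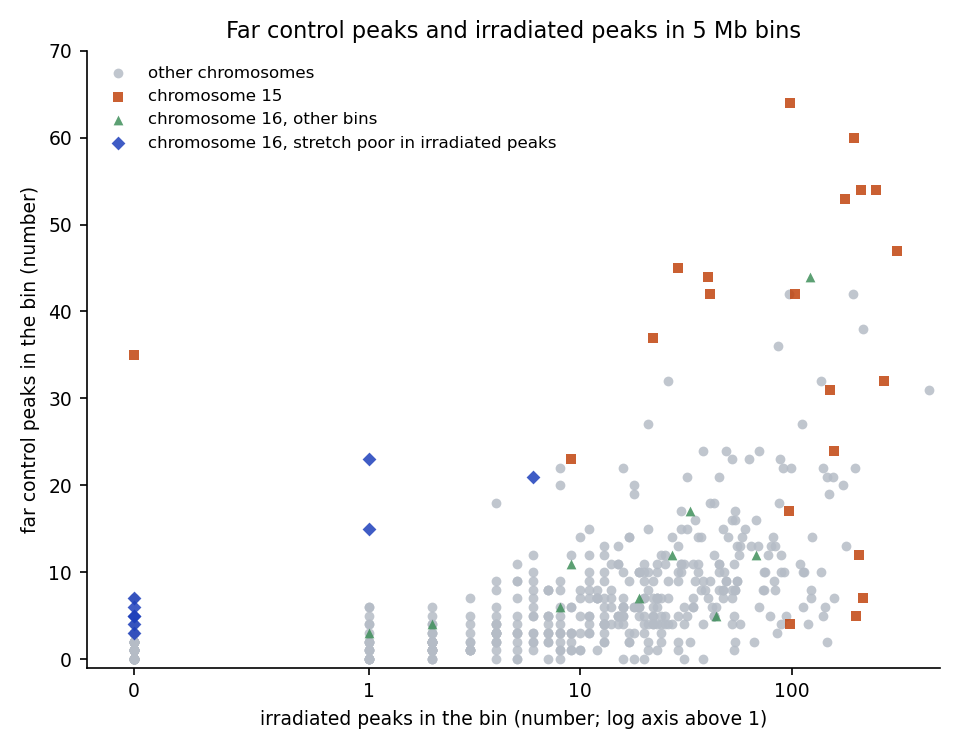
Far control peaks against irradiated peaks (log axis above 1) in 5 Mb bins of chromosomes 1 to 19, each point being a bin. Bins from the chromosome 16 stretch with 8 irradiated peaks lie at the left, a chromosome 15 bin has 35 far control peaks and no irradiated peak, and the highest bin has 64 far control peaks.

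A comparable gap lay on chromosome 15. From chr15:12960569 to chr15:20799977, over 7.84 Mb, no irradiated peak was listed, and 70 of 71 control peaks were far, 54 of them outside annotated genes. Here Cdh6, Cdh9 and Cdh10, cadherin genes for cell adhesion, had 1, 3 and 1 far peaks. The gap from chr15:21884150 to chr15:23897321 held 21, and Cdh18 in it had 5. In all, 24 gaps with at least 10 far peaks each held 389 far peaks. In 35 of the 5 Mb bins there was a control peak but no irradiated peak, with 123 far peaks between them, and 6 of these bins with 30 peaks were in the chromosome 16 stretch.

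The farthest control peak was chr14:101621154-101621578, 17098 kb from an irradiated peak, between Tbc1d4, a regulator of glucose transporter traffic, and Commd6. It had 7 reads and a q of 1. Next came chr16:62840310-62840593 in Arl13b (16803 kb, 11 reads, q 0.385) and chr16:62932510-62932804 between Pros1, the protein S gene, and Epha3 (16711 kb, 13 reads over a background of 2, q 0.577). The fourth, chr14:102051611-102052021 between Lmo7 and Kctd12, lay at 16667 kb, and the fifth, chr16:63137353-63137636, again between Pros1 and Epha3, at 16506 kb. Over 1000 kb from an irradiated peak lay 238 far peaks (5.90%), and the median distance was 58.0 kb.

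Of 20661 protein-coding genes on these chromosomes, 828 (4.01%) had a far control peak in or within 2000 bp of the gene, against 6.33% with any control peak and 8.63% with any irradiated peak. A single far peak marked 589 of the 828, and 488 (58.9%) had no irradiated peak, whereas 340 (41.1%) had an irradiated peak elsewhere in the gene or its margin. Marked genes were long, with a median of 107 kb against 17.5 kb for all genes. The marked share was 0.858% of genes under 10 kb, 2.32% from 10 to 50 kb, 5.51% from 50 to 100 kb, 16.9% from 100 to 500 kb and 36.3% (interval 29.8 to 43.1) above. Counts of marked genes in a list therefore move with the length of its members.

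The genes with the most far peaks were of that kind, 9 of them having 7 or more; for the tenth place, genes with 6 were ordered by q. Rbfox1, a neuronal splicing factor gene of 1528 kb on chromosome 16, had 20 far peaks among 29 control peaks, and 20 irradiated peaks. Sox5, a transcription factor gene active in neural and cartilage development, had 14 of 15, with 4 irradiated peaks. In Sntb1 all 13 control peaks were far and 1 irradiated peak was listed. Sema5a, an axon guidance gene, had 11 of 18 with 5 irradiated peaks, and Ctnnd2, which encodes a neuronal catenin, had 10 of 22 with 30. Zfpm2, a cofactor gene of GATA factors, had 8 of 9 with 1 irradiated peak. Samd12, Prlr, the prolactin receptor gene, and Syn3, a synapsin gene, had 7 each, with 16, 5 and 23 irradiated peaks. In Pde11a, a cyclic nucleotide phosphodiesterase gene, all 6 control peaks were far, and 1 irradiated peak was listed.

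Among genes ordered by the lowest q of a far peak, Coro2a was first, and it had no irradiated peak. Ptpro, which encodes a receptor phosphatase, had 16 reads at its strongest far peak, with a fold of 5.69 (q 0.00198), and 11 irradiated peaks elsewhere in the gene. Vmn2r129, a pheromone receptor gene, had the same reads, fold and q and no irradiated peak. Pde11a had 15 reads and a fold of 5.37 at that q, as had Zfp978 and Zfp991, zinc finger genes that share the peak at chr4:147132713-147133079. Further down were Ankfn1 (q 0.00557), Nkain3 (q 0.0103) and Samd12 (q 0.0104). Nkain3 stood apart from Ankfn1 and Samd12, with 32 reads over a background of 5 scaled reads. Pheromone receptor and zinc finger genes belong to families with similar copies, and how uniquely their reads map was not tested.

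Over 19 gene lists, the marked share was set beside the 4.01% of all protein-coding genes. The lists were written with earlier results known, so no test was made and nothing is read as particular to them. Cadherin and protocadherin genes had 23 of 90 (25.6%, interval 16.9 to 35.8). That count rests on few peaks, since 14 clustered protocadherin genes of the alpha group share 2 far peaks on chromosome 18 in the sequence that their long transcripts span. Of 23 cadherin genes, 9 were marked by 19 far peaks, and 5 of the 9 lay on chromosome 15. Cdh18 had 5 far peaks (strongest fold 4.40, q 0.0823) and no irradiated peak, and Cdh12 had 4 of 6 control peaks and 1 irradiated peak. Cadherins are long: 5 of 11 between 100 and 500 kb were marked, against 16.9% of all genes of that length, and 3 of 3 above, against 36.3%.

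Neuron genes had 5 of 37 (13.5%), among them Grin2a and Grin2b, NMDA receptor genes, Gria1, an AMPA receptor gene, and Cntnap2, an adhesion gene of neurons. Their strongest far peaks had 9 to 12 reads, and that of Grin2a had the lowest q, 0.0823. Grin2b had 4 far of 41 control peaks, whereas Cntnap2 had 6 far of 8. The median length of these 5 genes was 460 kb. Potassium, sodium and calcium channel genes had 16 of 131 (12.2%), and the 16 marked genes had a median length of 332 kb. The lowest q among them was 0.0823 in Cacng3, followed by 0.385 in Kcnip4 and Kcnn2. Cacng8, Kcnd2 and Kcnk10 tied next at 0.831. Collagen genes had 5 of 42 (11.9%, interval 3.98 to 25.6), each with 1 far peak: Col14a1, Col6a4, Col4a4, Col6a5 and Col4a3. Solute carriers had 22 of 365 (6.03%, interval 3.82 to 8.98). They were led by Slc6a2, the noradrenaline transporter gene (12 reads, fold 4.22, q 0.115), Slc2a13, Slc31a1 and Slc15a5. The intervals of the collagen and solute carrier lists include the 4.01% of all protein-coding genes.

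Wnt, Bmp, Fgf and Hedgehog ligand genes had 4 of 42 (9.52%, interval 2.66 to 22.6): Fgf15, Fgf9, Wnt5b and Wnt7a, each with 1 far peak and q between 0.133 and 0.385. The lists of other classes were at or below the share of all genes, or had intervals that include it. Polycomb genes had 1 of 38, Scml4, with 13 reads and a fold of 4.72 (q 0.0157). DNA damage response genes had 1 of 50, with a q of 1. Astrocyte, oligodendrocyte and neural stem cell genes had 1 of 27, Slc1a2, the glial glutamate transporter gene, with 2 far of 3 control peaks. Endothelial, fibroblast and epithelial genes had 1 of 22, Tek, and housekeeping genes 1 of 28, Ywhaz. Keratin genes had 1 of 53, Krt23. Microglia and leukocyte genes had 0 of 25, dividing-cell genes 0 of 31 and imprinted genes 0 of 38, with upper limits of 13.7%, 11.2% and 9.25%. Peaks do not measure expression, so these lists say nothing of which cells were in the culture.

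Odorant and vomeronasal receptor genes had marked shares below the 4.01% of all protein-coding genes. Odorant receptor genes had 11 of 1100 (1.00%, interval 0.500 to 1.78), led by Olfr331, Olfr1341, Olfr320 and Olfr315, and vomeronasal receptor genes had 5 of 352 (1.42%, 0.463 to 3.28), among them Vmn2r115 (q 0.0157), Vmn2r81 and Vmn2r117. Zinc finger genes named Zfp had 13 of 386 (3.37%, 1.81 to 5.69), led by Zfp978, Zfp991, Zfp981 and Zfp985. The marked odorant receptor genes had a median length of 0.975 kb, in the class of genes under 10 kb, of which 0.858% were marked. The marked vomeronasal receptor genes had a median length of 19.9 kb, in the class from 10 to 50 kb, of which 2.32% were marked. Each of these class shares lies inside the interval of its list. The lengths are of marked members only, and marking rises with length. The length class of each whole list was therefore not established, and no matched share can be read from this.

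**Figure D5:**
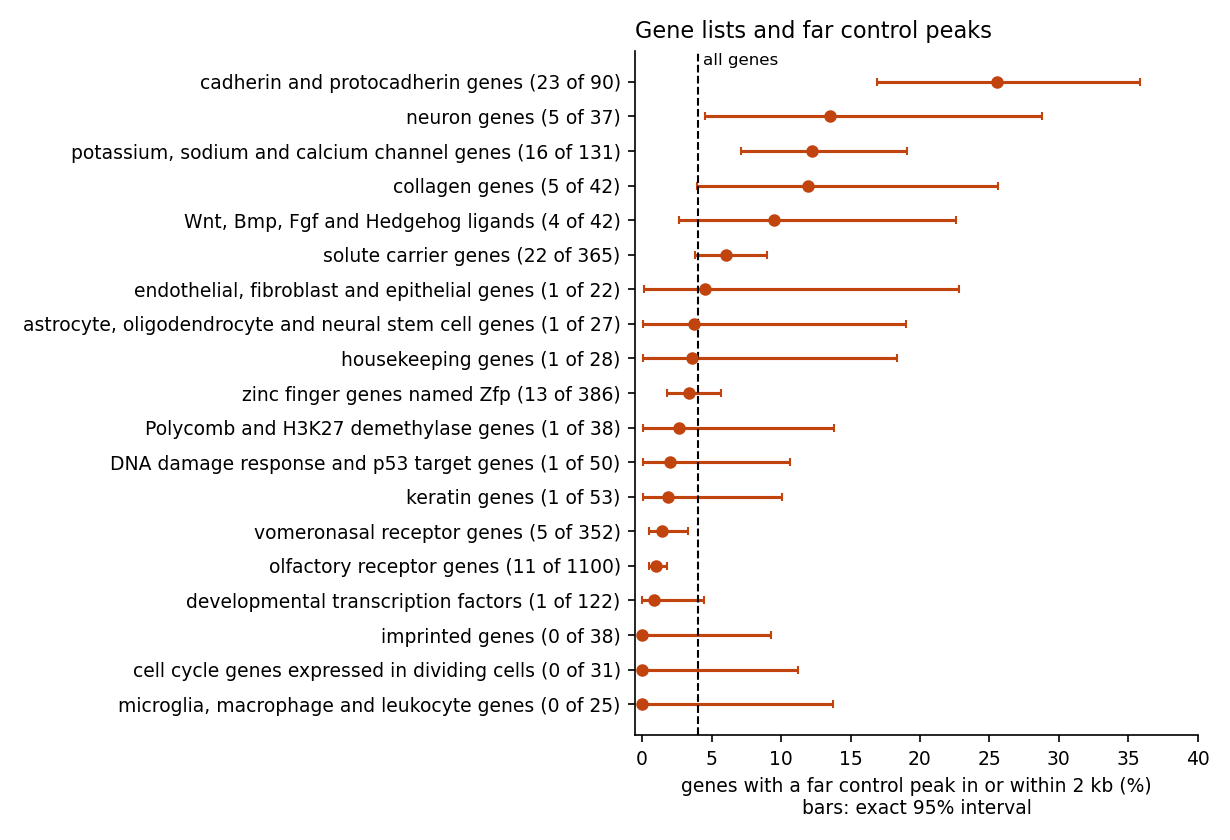
Share of the genes of each list with a far control peak in or within 2 kb, in percent with its exact 95% interval, the marked and listed numbers standing beside each name. The dashed line marks 4.01% of all protein-coding genes; cadherin and protocadherin genes are highest (23 of 90) and 3 lists have 0 members marked.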

How the data were processed

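Each H3K27me3 library came with its own peak list, deposited by the authors without pooling. Per the submitters' processing notes, BWA, deepTools and the mm10 build were used, with no versions; the caller is not given. Deposited starts, ends and summits are positions (other values, in bp). The deposited score is the whole part of a multiple of the −log10 p-value. The authors' ratio gives fold enrichment at the summit. Their deposited −log10 p and −log10 q values served, with the fold, to describe and rank peaks within a list.

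Of lines with the same interval, the one with the lowest p was kept (10081 control lines gave 9866 intervals). Reads and local background were recovered from fold and p under a Poisson model within a tolerance of 0.01, for 100% of lines. The recovery was tested on data simulated under the same model. That test could not show whether the unnamed caller used this model. Genes came from RefSeq GRCm38.p6, the assembly of mm10. Exons and introns were not resolved. Python 3.11.15, pandas 2.3.3, numpy 2.4.6, scipy 1.17.1 and matplotlib 3.10.9 were used.

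The members and gene lists were chosen with earlier results of these data known. Genes were named by rule: the 10 with the most far peaks, the 10 with the lowest q, up to 4 marked members of each list by q, up to 10 marked between 45 and 90 Mb of chromosome 16, and the edges of the 5 largest runs, the 5 farthest and the 5 widest peaks. Predicted genes were left out, some genes the rule took are not reported here, and others named complete a short count. Comparisons at equal reads and runs beyond the largest 5 were chosen after seeing the data. Alternatives changed the distance, the number of irradiated peaks, the q, merging, annotation and chromosomes.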

Additional observations from a re-analysis of the deposited data

Results flagged for a closer look

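Peaks outside chromosomes 1 to 19 were not used in the report, and some of them met the same distance rule. On the X chromosome, 61 of 280 control peaks (21.8%, exact interval 17.1 to 27.1) had no irradiated peak within 10 kb, with a median width of 319 bp and a median fold of 3.64, and 7 of them had a q of at most 0.05. On unplaced scaffolds, 8 of 56 control peaks (14.3%, 6.38 to 26.2) met it, and none of the 8 had a q of at most 0.05. There were no replicates, so neither count could be set against the spread between samples.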

How the results depend on the processing

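With 12 alternative settings, 9 of them fixed in the design and 3 chosen after seeing the data, 46 values stayed within their interval or within 1.5 times the count and 20 moved. A distance of 5 kb gave a median width of 334.5 bp and 24.7% with a far neighbour within 10 kb, against 22.2%. A distance of 50 kb left 2161 peaks and 476 genes, with 324 bp, 60.7% outside genes, 16.1% with a far neighbour and 16.7% on chromosome 15. With as many irradiated as control peaks, there were 4876 far peaks and 938 marked genes, against 4037 and 828, and 25.9% had a far neighbour. Both counts stayed within 1.5 times, but the number of far peaks depends on the length of the irradiated list. Peaks with a q of at most 0.05 numbered 83 in 23 genes, with 373 bp, a fold of 4.72, 67.5% outside genes, 4.82% with a far neighbour and 28.9% on chromosome 15. Merging within 1 kb gave 18.7% and leaving out chromosome 15 gave 19.2% with a far neighbour. With protein-coding genes only, 70.7% lay outside genes, and without raised background the fold was 3.35. The cause was not tested. Median fold, read counts and q are limited by the few reads behind each peak. No paired analysis was possible because each condition had 1 library.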

Other observations

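The far peak with the most reads was weak by fold. It stood at chr15:75085585-75085902, with 238 reads over a background of 97.0 scaled reads and a fold of 1.52, and was chosen after its values were seen.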
